A study of Arabidopsis thaliana with 8 samples.

Results

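Whole Arabidopsis thaliana plants that had spent 24 h at 4 °C were compared with plants harvested before the cold. The comparison uses 4 of the 8 arrays of the study: both arrays of the 24 h group and both of the 0 h group, taken from the sample labels. The remaining 4 arrays, from plants after 1 h and after 7 days in the cold, entered the statistical model to help estimate the spread between replicates. Every probe set other than the array's own controls was considered, 22746 in all, and 15017 of them were bright enough on at least 2 arrays to be tested.

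All plants were Col-0, a standard laboratory accession, and the titles of all samples mark them as wild type (WT). They were sampled as whole plants and 10 days old at the start. They had grown at 24 °C in continuous light (100 µmol m-2 s-1) on plates of 0.80% phytagar with Gamborg's B5 salts, after 4 days of stratification. The 0 h plants were harvested in those conditions. The 24 h plants were moved to 4 °C and to weaker light (near 25 µmol m-2 s-1) according to the treatment protocol, although the descriptions of the same samples list 100. Temperature and light therefore changed together, and no plants kept warm for 24 h were analysed here, so cold, light and time of harvest cannot be told apart. The labels do not say whether the 2 samples of a group came from separate plates, so the p-values may reflect technical spread between samples alone.

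Plants of temperate regions become more freezing tolerant after a time at low, non-freezing temperature, a process called cold acclimation. In Arabidopsis, CBF transcription factors switch on cold-regulated (COR) genes, whose hydrophilic proteins protect membranes and enzymes, while soluble sugars build up. Growth slows in the cold, and the machineries of photosynthesis, RNA maturation and protein folding are adjusted to the lower temperature.

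The arrays resembled each other within groups. Signals of paired arrays correlated at r = 0.961 at 0 h and r = 0.956 at 24 h across the tested probe sets, which are not independent of each other. Differences of over 2-fold between the arrays of one group occurred for 2.26% of probe sets at 0 h and 3.55% at 24 h. For the main actin control the 3′ over 5′ signal ratio, a measure of RNA integrity, was 3.84 and 2.95 at 0 h and 6.53 and 3.44 at 24 h. Array 1 at 24 h thus stood above the other 3 in that ratio, while a second actin control (1.18 to 1.3), GAPDH (1.22 to 1.44) and ubiquitin (1.99 to 2.32) showed no such array. Without that array 3328 probe sets were called in place of 4074. Markers of green tissue, of which 6 of 22 were measured, summed to signals of 9954 and 16179 at 0 h and 9725 and 13409 at 24 h. The 1 measured marker of flowers and seeds was at 0.42 to 5.49 on these arrays.

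A called difference is one with an adjusted p under 0.05 in limma, a linear model fitted to log2(signal + 8) on all arrays. Of the tested probe sets 27.1% were called, 11.8% higher at 24 h and 15.3% lower, and the median log2 change of all of them was -0.06. Higher calls made up 43.5% of all calls, or 53.5% when the arrays were scaled to equal medians. Among the 8032 tested genes with a name or locus code 26.6% were called, and 11.5% were called higher and 15.1% lower, which is the background for the gene groups described here. The changes were mostly moderate, with a median log2 change of 1.05 for probe sets called higher and -0.99 for those called lower. A log2 change of at least 1, which is 2-fold, was reached by 975 calls upward and 1124 downward, together 14.0% of the tested probe sets. At the extremes the 2 directions separated, since 35 rises but 23 falls reached 3 and 6 rises but no falls reached 5. Adding 8 to each signal understates the change of dim genes. In whole plants, fewer cells of a type and less RNA per cell cannot be told apart.

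**Figure D1:**
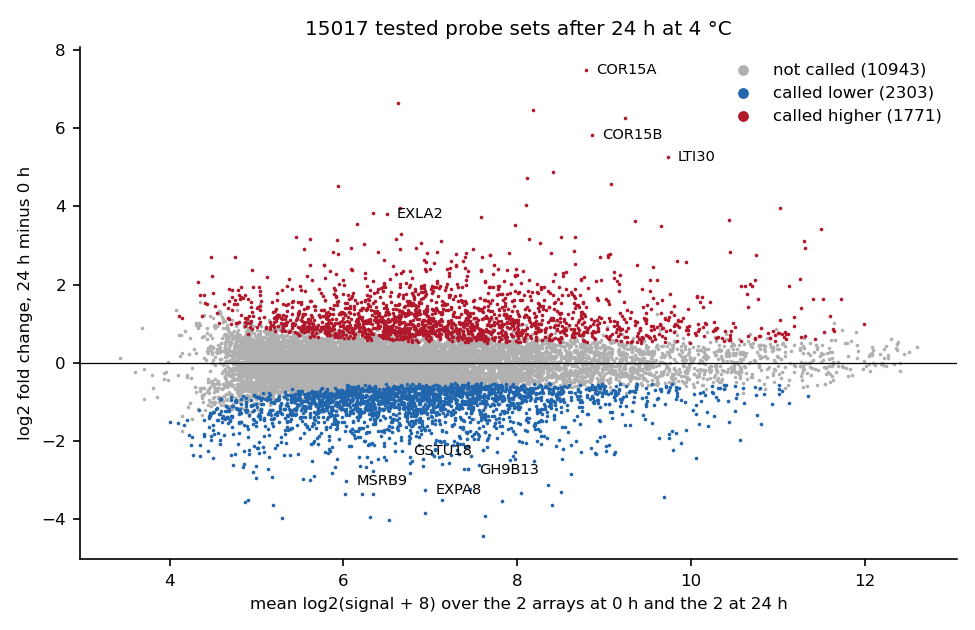
Log2 change from 0 h to 24 h (vertical axis) against the mean log2(signal + 8) of the 4 arrays (horizontal axis) for the 15017 tested probe sets, with 1771 called higher in red, 2303 called lower in blue and the rest in grey. Rises extend further from 0 than falls, to 7.48 for COR15A.

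Precision set a limit at the other end. For 7904 of the 10943 probe sets that were not called, the 95% interval of the log2 change lay inside 2-fold in both directions, so no change of that size lay within their intervals. For the other 3039 the interval reached 2-fold or more. Genes of the 5 nuclear chromosomes were called at similar rates, from 9.9% to 11.9% higher and from 13.6% to 17.0% lower. Probe sets without a gene in the annotation, 6603 of those tested, were called in 12.3% (higher) and 15.6% (lower) of cases.

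Some transcripts went from the dim part of the array to the bright part within the day. For 8 probe sets the signal lay below the 40th percentile of both 0 h arrays and above the 80th percentile of both 24 h arrays, and 3 showed the opposite course. AT1G16850 gave signals of 2.67 and 1.05 at 0 h and 914 and 1063 at 24 h, a log2 change of 6.66 ± 0.22 (SE, limma adjusted p = 3.46e-08). AT3G55580 gave 7.73 and 2.38 before and 299 and 277 after (4.53 ± 0.25, limma adjusted p = 1.16e-06). On AT1G51090 the arrays read 14.9 and 20.5 at 0 h and 403 and 375 at 24 h (3.96 ± 0.28, limma adjusted p = 7.34e-06). The wide gap between the groups follows from how these probe sets were chosen, which also required a call. The other named genes of this kind were EXLA2, AT2G16890 and PDF2.1. After 7 days AT3G55580 was still at 279.9 and 199.7, whereas AT1G51090 was at 56.9 and 49.0.

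Unnamed probe sets were among the largest changes. Probe set 264511_at had signals of 21.4 and 24.4 at 0 h and 2552 and 2889 at 24 h, and 248337_at had 63.5 and 58.8 against 4475 and 6202. Their log2 changes were 6.46 ± 0.30 and 6.25 ± 0.31 (limma adjusted p = 4.09e-07 and 5.69e-07). Downward, 260221_at went from 237 and 559 to 14.1 and 15.6, and 252011_at from 152 and 142 to 1.39 and 2.36, log2 changes of -4.03 ± 0.41 and -3.97 ± 0.35 (limma adjusted p = 5.40e-05 and 2.54e-05). All 4 were chosen among called probe sets with no overlap between 0 h and 24 h arrays. That lack of overlap held for 61.3% of all tested probe sets.

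**Figure D2:**
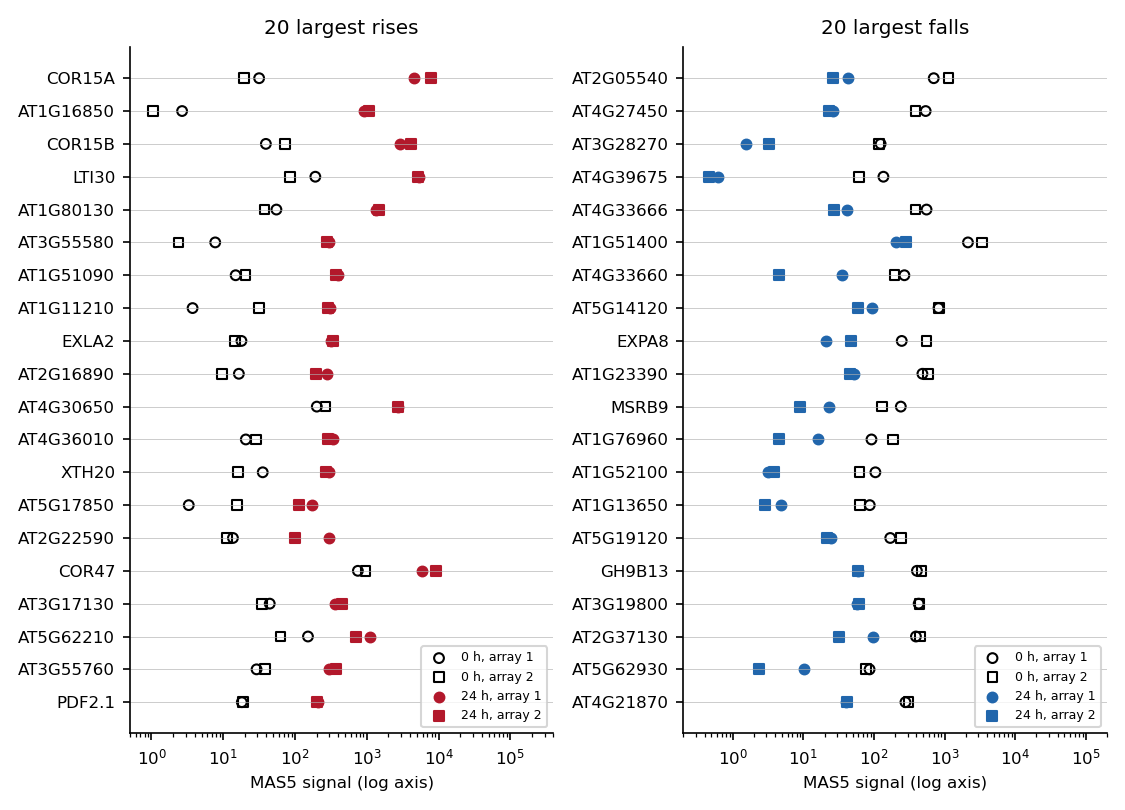
MAS5 signal on a log axis for the 20 genes with the largest rises (left, red at 24 h) and the 20 with the largest falls (right, blue at 24 h), with open symbols for 0 h and circles and squares for arrays 1 and 2. The genes were chosen among called genes with no overlap between 0 h and 24 h arrays. Many of the genes that fell ended at signals under 100 after starting well above that.

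Among the named genes with the largest falls, AT2G05540 read 703 and 1136 at 0 h and 43.6 and 26.1 at 24 h. AT1G51400 was much brighter at the start, with 2146 and 3410, and ended at 205 and 285. AT4G39675 fell to the bottom of the arrays, from 136 and 61.6 to 0.617 and 0.458. These 3 belong to the 30 largest rises and 30 largest falls of named genes, which were chosen among called genes with no overlap between 0 h and 24 h arrays, as was the case for 60.8% of all tested named genes. All 60 were called under every alternative setting, including each array left out in turn.

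The measured cold-regulated genes, 6 of 32 entries of their list, rose together. Besides the 5 described below they include COR27 (AT5G42900), with 41.7 and 119.7 at 0 h and 468.5 and 595.6 at 24 h. Its log2 change was 2.75 ± 0.57 (limma adjusted p = 0.00449). All 6 measured COR genes and relatives were called higher, with a median log2 change of 4.19, and the 6 stayed called whichever array was left out. COR15A (AT2G42540), a chloroplast stroma protein that protects membranes, gave 31.6 and 19.7 at 0 h and 4523 and 7758 at 24 h, and its log2 change of 7.48 ± 0.60 was the largest of any tested probe set (limma adjusted p = 1.42e-05). Its relative COR15B (AT2G42530) read 39.3 and 72.0 before and 2931 and 4178 after (5.83 ± 0.41, limma adjusted p = 6.39e-06). The dehydrin LTI30 (AT3G50970) read 192 and 85.9 before and 5421 and 5115 after (5.27 ± 0.29, limma adjusted p = 1.07e-06). The dehydrin COR47 (AT1G20440) was already bright at 0 h, with 752 and 962, and reached 5963 and 9336. TIL (AT5G58070), a lipocalin of the plasma membrane, went from 704 and 834 to 2907 and 3140, a log2 change of 1.97 ± 0.18 (limma adjusted p = 2.78e-05). No 24 h array overlapped a 0 h array for any of the 6, as was the case for 60.8% of all tested named genes. At 7 days, in a comparison that shares the 0 h arrays, the log2 changes of these 5 were 7.13, 5.35, 4.17, 1.84 and 1.01.

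Other stress genes were more divided. Of 5 tested genes for late embryogenesis abundant and drought-induced proteins, 2 were called higher and 1 lower. RD2, named for its response to desiccation, was at 572 and 602 at 0 h and 1898 and 1992 at 24 h (log2 change 1.71 ± 0.17, limma adjusted p = 5.43e-05). The rise of LEA4-5 ended without 0 h array 2 (limma adjusted p = 0.0622) and without 24 h array 1 (0.0518), and the fall of DI19 ended without 0 h array 2 (0.0649) and without 24 h array 2 (0.073). STZ, a zinc finger repressor of stress genes, had its highest signals at 1 h, 375 and 457, and read 41.2 and 28.4 at 0 h and 141 and 126 at 24 h. Its change over 24 h was 1.74 ± 0.22 (limma adjusted p = 0.000188), so both later arrays were still above both early ones. BETA-VPE, a vacuolar processing protease, rose from 39.6 and 36.2 to 215 and 218 (2.29 ± 0.20, limma adjusted p = 2.52e-05).

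Sugar transporters moved in both directions. Of 14 tested members of the SWEET, tonoplast monosaccharide transporter and ERD6-like groups, 5 were called higher and 4 lower, with a median log2 change of 0.15. SWEET13 (AT5G50800), a sucrose exporter of the plasma membrane, had the largest rise, from 44.2 and 36.0 to 217 and 259 (2.36 ± 0.20, limma adjusted p = 1.79e-05). TMT2 (AT4G35300), which loads sugars into the vacuole, went from 133 and 135 to 437 and 399 (1.58 ± 0.18, limma adjusted p = 0.000115). SWEET1, a glucose transporter, rose by 1.01 ± 0.19 (limma adjusted p = 0.00253). Of the vacuolar exporters, SWEET17, a fructose channel, fell from 333 and 356 to 169 and 120.3 (-1.23 ± 0.22, limma adjusted p = 0.00191). SFP1, an ERD6-like transporter, fell further, from 333 and 299.5 to 86.6 and 56.0 (-2.06 ± 0.23, limma adjusted p = 8.64e-05). The arrays of both groups were apart for these 5 genes, as they were for 60.8% of all tested named genes. SWEET4 and SWEET10, both higher, lost their calls without 0 h array 1. SWEET4 also lost its call without 24 h array 2, and SWEET10 without 0 h array 2 or 24 h array 1. SWEET16 and SFP2, both lower, lost their calls without 24 h array 1 (0.0514 and 0.0595).

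Genes listed for starch and sucrose turnover were mostly not called. Of 9 tested, none was called higher and 1 was called lower, QQS, which is no enzyme of that turnover. That call ended without 0 h array 2 (limma adjusted p = 0.134) and without 24 h array 1 (0.112). The largest rise among the others was 0.54.

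Flavonoid enzymes rose or stayed below the threshold. Of 7 tested, 4 were called higher and none lower, with a median log2 change of 1.04. UGT78D3 (AT5G17030), which attaches arabinose to flavonols, was dim at 0 h with 3.84 and 7.74 and read 72.5 and 53.3 at 24 h (2.36 ± 0.38, limma adjusted p = 0.00096). UGT78D2 (AT5G17050), which attaches glucose to flavonols and anthocyanins, gave 191.5 and 104.6 against 617 and 571. CHIL (AT5G05270), a chalcone isomerase-like protein, went from 232 and 196 to 565 and 537 (1.33 ± 0.23, limma adjusted p = 0.00158). In each the 24 h arrays were above the 0 h arrays. The groups were apart, in either direction, for 60.8% of all tested named genes. DFR, the reductase on the way to anthocyanins, was at 0.25 and UF3GT at 0.52, and neither was called. The remaining call, AT5MAT, ended without either 0 h array (limma adjusted p = 0.101 and 0.0772) and without 24 h array 2 (0.211). At 7 days the group's median was -0.11 with 0 called.

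**Figure D3:**
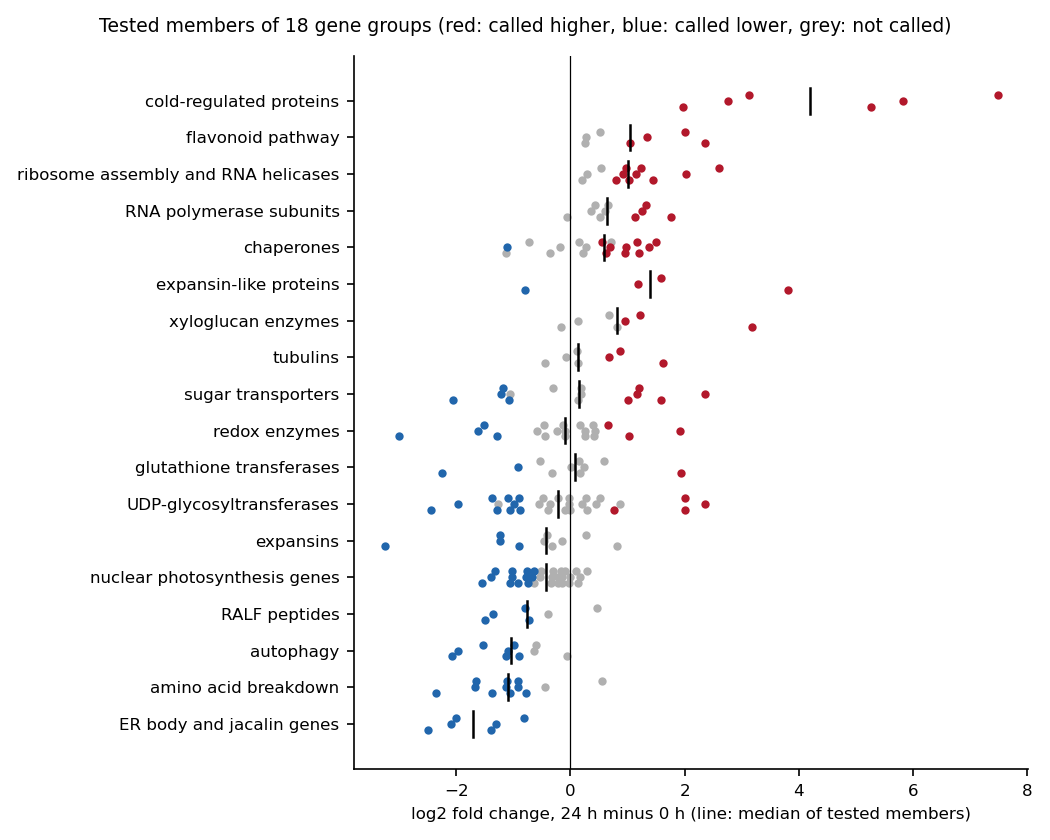
Log2 change from 0 h to 24 h for each tested member of 18 gene groups (points; red called higher, blue called lower, grey not called), with the group median as a black line. COR genes, ribosome assembly factors and RNA polymerase subunits lie to the right, autophagy, amino acid breakdown and ER body genes to the left, and sugar transporters and redox enzymes spread to both sides.

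Most autophagy genes fell. Autophagy encloses cytoplasm in membranes for breakdown in the vacuole, and ATG8 proteins coat those membranes. Of 10 tested genes 7 were called lower and none higher, with a median of -1.04. ATG8H (AT3G06420) had the largest fall, from 103.1 and 84.7 to 39.7 and 4.16 (-2.08 ± 0.47, limma adjusted p = 0.00736), with 24 h arrays far from each other. ATG8F (AT4G16520) was at 769 and 634 at 0 h and 206 and 143 at 24 h (-1.97 ± 0.22, limma adjusted p = 0.000102). ATG8E (AT2G45170) went from 223 and 152 to 64.6 and 53.0 (-1.53 ± 0.23, limma adjusted p = 0.000719). ATG8C fell from 175 and 168 to 76.5 and 76.4, and ATG3, the enzyme that joins ATG8 to lipid, from 209 and 239.5 to 118 and 100.4. Their log2 changes were -1.09 ± 0.19 and -0.99 ± 0.19 (limma adjusted p = 0.00139 and 0.00243). All 0 h arrays were above all 24 h arrays for these genes. The groups were apart, in either direction, for 60.8% of all tested named genes. ATG8B was at -0.05, the member nearest to 0. APG8H (limma adjusted p = 0.0522) lost its call without 24 h array 2, as did ATG8D (0.0748), which also lost it without 0 h array 2 (0.0538).

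Genes for breakdown of branched-chain and other amino acids were also mostly lower. In a list of that name 6 of 7 tested genes were called lower and none higher, with a median of -1.38. A wider group, put together after values had been seen, adds the mitochondrial electron transfer chain that serves this breakdown, ornithine breakdown and PAHX, a gene of phytanoyl-CoA hydroxylase that is no enzyme of amino acid breakdown. In it 10 of 12 were called lower, PAHX among them at -0.92, with a median of -1.09. The subunits of methylcrotonyl-CoA carboxylase, an enzyme of leucine breakdown, were among them. MCCA (AT1G03090) read 77.6 and 96.0 at 0 h and 19.8 and 4.28 at 24 h (-2.35 ± 0.39, limma adjusted p = 0.00109), and MCCB (AT4G34030) read 149 and 187 against 63.3 and 34.2 (-1.67 ± 0.27, limma adjusted p = 0.00107). IVD, the preceding dehydrogenase of that pathway, fell by 1.11 ± 0.24 (limma adjusted p = 0.00513). AT4G33150, listed under the synonym LKR for the enzyme that starts lysine breakdown, went from 68.1 and 85.0 to 26.1 and 22.8 (-1.38 ± 0.23, limma adjusted p = 0.00123). D2HGDH, which passes electrons from 2-hydroxyglutarate to the same electron transfer chain, fell by 1.13 ± 0.22 (limma adjusted p = 0.0028). DELTA-OAT, of ornithine breakdown, fell by 1.06 ± 0.22 (limma adjusted p = 0.00476). The 2 exceptions were MGL, a cytosolic methionine lyase, at 0.55 and ETFBETA at -0.45. ETFQO, the oxidoreductase of the electron transfer chain, lost its call without 0 h array 2 (limma adjusted p = 0.0565) and without 24 h array 2 (0.0699). ALDH6B2 also lost its call without either of these arrays (0.113 and 0.137), and ETFALPHA without 0 h array 1 (0.147), 0 h array 2 (0.0603) or 24 h array 2 (0.198).

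Both groups overlap a set of genes known to rise in darkness and sugar starvation. The list for that set was chosen with earlier results of these data known. Its ATG8 genes were ATG8E, ATG8F and ATG8H, and the ATG8 genes not called were not in it. Of all tested named genes 15.1% were called lower. Of the 43 list entries 11 were measured, and all 11 were called lower at 24 h, with a median of -1.67. Besides members already given they include AKINBETA1, a regulatory subunit of the SnRK1 energy-sensing kinase, at 255 and 369 against 42.0 and 63.5 (-2.40 ± 0.33, limma adjusted p = 0.000358), and CP5, at 2018 and 2998 against 461 and 443 (-2.42 ± 0.22, limma adjusted p = 2.81e-05). Neither gene's groups overlapped, and the calls remained with each array left out. Such a gap was found for 60.8% of all tested named genes.

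Cell wall genes were described by family, with no test of a difference between families. Alpha and beta expansins, which loosen walls during growth, were called lower in 4 of 10 tested cases and higher in none, with a median of -0.44. EXPA8 (AT2G40610) gave 247.5 and 554 at 0 h and 20.7 and 46.9 at 24 h (-3.25 ± 0.39, limma adjusted p = 0.000154). EXPB3 (AT4G28250) gave 379 and 302 against 120.6 and 161 (-1.23 ± 0.25, limma adjusted p = 0.00373). EXPA20 and EXPA4 lost their calls without 0 h array 1. EXPA20 also lost its call without 0 h array 2 or 24 h array 2, and EXPA4 without 24 h array 1. The root hair genes EXPA7 and EXPA18 were at -0.16 and 0.27 and were not called.

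The smaller family of expansin-like proteins, related in sequence and without a known wall-loosening activity, showed 3 of 4 members higher and 1 lower. EXLA2 (AT4G38400) rose from 17.9 and 14.5 to 317 and 343 (3.80 ± 0.23, limma adjusted p = 1.94e-06), and EXLA1 (AT3G45970) from 79.0 and 116.5 to 337 and 273 (1.58 ± 0.35, limma adjusted p = 0.00645). EXLA3 lost its call without any 1 of the 4 arrays (limma adjusted p from 0.0963 to 0.187). EXLB1, the member called lower, lost it without 0 h array 1 (0.385), 24 h array 1 (0.18) or 24 h array 2 (0.073). At 7 days EXLA2 was at a log2 change of 1.75 and EXLA1 at -0.25.

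**Figure D4:**
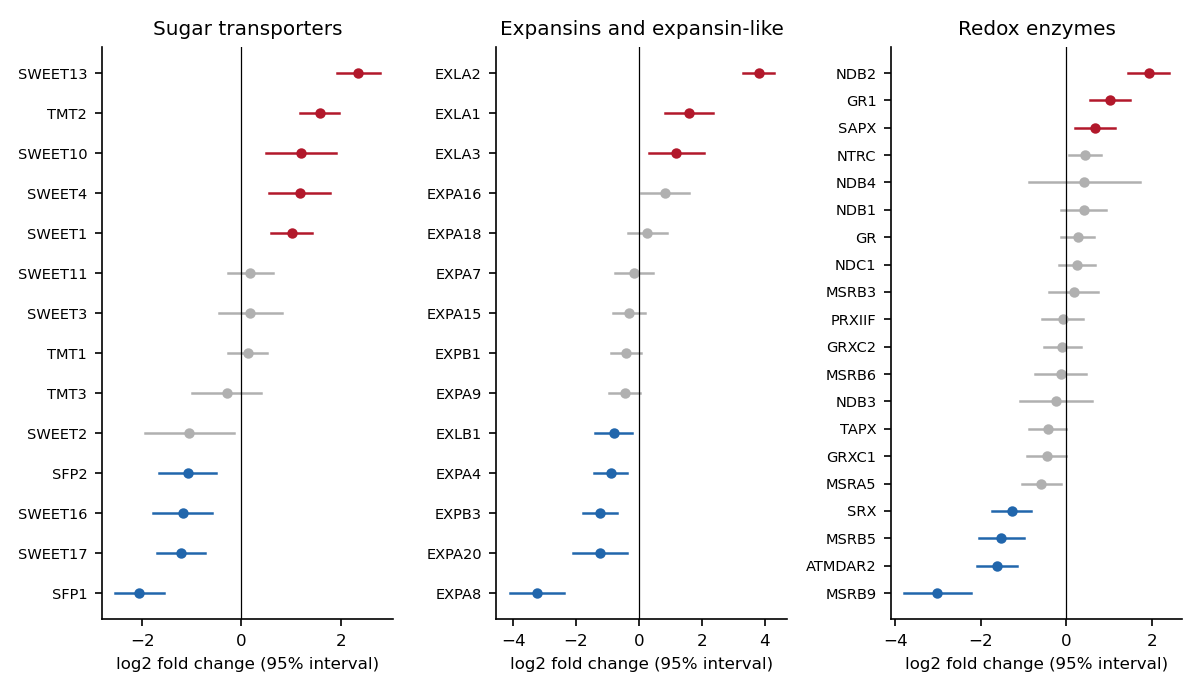
Log2 change from 0 h to 24 h with its 95% interval for each tested sugar transporter (left), expansin or expansin-like gene (middle) and redox enzyme (right); red called higher, blue called lower, grey not called. Each panel holds members far to both sides of 0, such as SWEET13 and SFP1, EXLA2 and EXPA8, and NDB2 and MSRB9.

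Enzymes that cut and rejoin xyloglucan, the polymer tethering cellulose, were called higher in 3 of 7 cases and lower in none. The share called higher was 42.9%, against 11.5% of all tested named genes. XTH20 (AT5G48070) rose from 35.5 and 16.1 to 302 and 269 (3.18 ± 0.28, limma adjusted p = 2.54e-05) and was at a log2 change of 3.55 at 7 days. XTH33 rose from 23.1 and 25.7 to 65.9 and 69.0 (1.22 ± 0.29, limma adjusted p = 0.00989). XTH18 lost its call without 0 h array 1 (limma adjusted p = 0.185) and without 24 h array 2 (limma adjusted p = 0.213). Of 29 tested cellulases, cellulose synthase-like proteins and TBL wall acetylation proteins, 4 were called lower (13.8%, against 15.1% of all tested named genes) and none higher. GH9B13 (AT4G02290), a family 9 glycosyl hydrolase, had 406 and 473 at 0 h and 60.3 and 58.6 at 24 h (-2.73 ± 0.18, limma adjusted p = 4.82e-06), and TBL36 (AT3G54260) had 302 and 413 against 53.5 and 53.3 (-2.56 ± 0.19, limma adjusted p = 1.03e-05). CSLA03, a mannan synthase relative, fell by 1.74 ± 0.21 (limma adjusted p = 0.000158). TBL35 fell by 1.08 ± 0.26 (limma adjusted p = 0.00964), a call that ended without 0 h array 1 (0.075) or 24 h array 2 (0.052). The 25 others of that group were not called. Of 3 pectin methylesterases, ATPMEPCRB rose from 24.0 and 28.7 to 189 and 137 (2.31 ± 0.21, limma adjusted p = 2.54e-05), PMEPCRF was called lower, a call that ended without 0 h array 1 or 24 h array 2 (limma adjusted p = 0.0737 and 0.0751), and PME61 was not called.

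Genes for making ribosomes and RNA polymerases rose or were not called. Among RNA polymerase subunits 4 of 10 were called higher and none lower, with a median of 0.63, and the 4 calls stood whichever array was left out. NRPA1 (AT3G57660), the largest subunit of RNA polymerase I, which transcribes ribosomal RNA, rose from 55.0 and 43.9 to 179 and 195 (1.77 ± 0.20, limma adjusted p = 0.000123). NRPA2 (AT1G29940), the second subunit, rose from 115 and 114 to 298 and 294 (1.32 ± 0.20, limma adjusted p = 0.000703). NRPB12 and NRPB7, small subunits of nuclear polymerases, rose by 1.25 ± 0.20 and 1.13 ± 0.24 (limma adjusted p = 0.00107 and 0.00542). The polymerase III subunits NRPC1 and NRPC2 were at 0.43 and 0.61 and were not called.

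Of 12 ribosome assembly factors and RNA helicases, 9 were called higher and none lower, with a median of 1.00, and 7 or 8 were called when 1 array was left out. The gene listed as RBL (AT3G55510, REBELOTE), a nucleolar protein related to a yeast ribosome assembly factor, rose most, from 54.0 and 53.0 to 363 and 364 (2.60 ± 0.19, limma adjusted p = 8.92e-06). YAO (AT4G05410), a nucleolar protein of pre-ribosomal RNA processing, had 67.5 and 61.4 against 318 and 257.3 (2.02 ± 0.25, limma adjusted p = 0.000165). IMP4 went from 168 and 122 to 411 and 399 (1.45 ± 0.21, limma adjusted p = 0.000506). Among the helicases, NIH rose by 1.24 ± 0.23, EIF4A-2, an RNA helicase of the translation initiation factor family, by 1.14 ± 0.22, and PRH75, a nucleolar helicase, by 0.97 ± 0.20 (limma adjusted p = 0.0026, 0.00255 and 0.00441). The arrays of these 6 genes did not overlap between the groups, as was the case for 60.8% of all tested named genes. RH39, another helicase, rose by 1.03 ± 0.23 (limma adjusted p = 0.00598), a call that ended without 24 h array 2 (0.0562). DIM1A, DIM1B and RH20 were at 0.53, 0.29 and 0.19 and were not called. These 12 genes were put together after values had been seen. A broader list, which holds many of them together with polymerase subunits, LSM proteins and splicing factors, had 12 of 28 called higher and 1 lower, with a median of 0.57. The lower call, LSM3A at -0.80 ± 0.25 (limma adjusted p = 0.0311), ended without 0 h array 1 (0.142), 0 h array 2 (0.0667) or 24 h array 1 (0.139).

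Chaperones and co-chaperones, a group put together after values had been seen, were called higher in 9 of 18 cases and lower in 1, with a median of 0.58. ATJ1 (AT1G28210), a co-chaperone of the DnaJ family, had the largest rise, from 6.77 and 9.23 to 31.4 and 43.2 (1.49 ± 0.34, limma adjusted p = 0.00788), a call that ended without 24 h array 2 (0.0531). Fes1A and SQN rose by 1.2 ± 0.27 and 1.16 ± 0.32 (limma adjusted p = 0.00649 and 0.0192), and the first call ended without 24 h array 1 (0.0542) and the second without 0 h array 2 (0.127) or 24 h array 1 (0.142). Hop1 and Hop2, which link the chaperones Hsp70 and Hsp90, rose by 0.97 ± 0.21 and 1.38 ± 0.17 (limma adjusted p = 0.00584 and 0.00021). Hop2 (AT1G62740) read 136 and 142 at 0 h and 376 and 374 at 24 h. SGT1A (AT4G23570), a partner of Hsp90 in immune receptor stability, went the other way, from 179.5 and 140.3 to 77.1 and 62.1 (-1.11 ± 0.21, limma adjusted p = 0.00233). The count of higher calls depended on single arrays: it was 5 without 0 h array 2, 5 without 24 h array 1 and 4 without 24 h array 2. Without 0 h array 1, 3 members were called lower in place of 1. A separate list of heat shock and folding genes had 2 of 6 called higher and 2 lower, with a median of -0.21; of its entries CCT1 and CCT2 are lipid enzymes that share a symbol with chaperonins. The lower ones were PDIL5-1, a protein disulfide isomerase-like gene, at 152 and 137 against 79.1 and 49.0 (-1.11 ± 0.23, limma adjusted p = 0.00383), and DJ1D at -0.68 ± 0.22 (0.0409), whose call ended without 0 h array 2 (0.252), 24 h array 1 (0.183) or 24 h array 2 (0.0574).

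Nuclear genes of photosynthesis, in a group put together after values had been seen, fell or were not called. Of 30 tested, 12 were called lower and none higher, with a median of -0.43, and 6 were called lower without 0 h array 2. PGRL1B (AT4G11960), a protein of cyclic electron flow around photosystem I, had 162 and 195 against 53.1 and 57.5 (-1.55 ± 0.19, limma adjusted p = 0.000195). HPR (AT1G68010), the hydroxypyruvate reductase of photorespiration, was bright and fell from 2456 and 3025 to 1075 and 1093 (-1.32 ± 0.21, limma adjusted p = 0.000879). TRXF2, a thioredoxin that activates Calvin cycle enzymes in the light, fell from 378 and 385 to 187 and 104.9 (-1.39 ± 0.28, limma adjusted p = 0.00338). NdhN and NdhS, subunits of the chloroplast NDH complex encoded in the nucleus, fell by 1.06 ± 0.20 and 0.92 ± 0.19 (limma adjusted p = 0.00248 and 0.00469), and PAM68, an assembly factor of photosystem II, by 1.02 ± 0.20 (0.00338). LHCB4.2, a minor antenna protein of photosystem II, fell by 1.02 ± 0.24 (limma adjusted p = 0.0078), a call that ended without 0 h array 2 (0.0521) or 24 h array 1 (0.059). In a narrower list of photosynthesis genes 5 of 17 were called lower (29.4%) and none higher, with a median of -0.31. Other genes had values nearer to 0, such as PSAN at -0.17, LHCB4.1 at -0.03, RCA, the Rubisco activase, at 0.13 and SBPASE at -0.01, none of them called. At 7 days PGRL1B, HPR and TRXF2 were at -1.95, -1.65 and -1.66.

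Of 10 tested enzymes of chlorophyll and haem synthesis 3 were called lower and none higher. CHLM (AT4G25080), which methylates magnesium protoporphyrin on the way to chlorophyll, fell from 1088 and 1439 to 631 and 675 (-0.93 ± 0.19, limma adjusted p = 0.00389). The other 2, hemf2 and HEME1, lost their calls without 0 h array 1. HEME1 also lost its call without 24 h array 1.

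Genes encoded in the plastid genome were called higher or not called. Of 68 tested plastid genes 15 were called higher and none lower, and their median log2 change was 0.49. Their mean log2(signal + 8) was 8.26 and 8.27 at 0 h and 8.82 and 8.62 at 24 h, so both 24 h arrays were above both 0 h arrays. The count rested on single arrays. It was 2 without 0 h array 1, 6 without 24 h array 1 and 9 without 24 h array 2, while without 0 h array 2 it stayed at 15 with 3 lower. The large subunit of Rubisco, rbcL, read 87.4 and 135 at 0 h and 423 and 714 at 24 h (2.26 ± 0.42, limma adjusted p = 0.00224), and it was called under every alternative. Genes of the plastid NDH complex were called higher in 4 of 9 cases, photosystem, cytochrome, ATP synthase and Rubisco genes in 7 of 37, and polymerase, ribosome and other genes in 4 of 22. The subunit ndhH had 29.0 and 43.9 against 83.9 and 83.2 (1.06 ± 0.26, limma adjusted p = 0.0112), and rpoB of the plastid RNA polymerase 18.4 and 32 against 65.9 and 60.9 (1.13 ± 0.26, limma adjusted p = 0.00814). Without 0 h array 1 neither was called (0.0868 and 0.0695). The array at 24 h with the higher actin ratio was also the one with the higher plastid mean, and whether RNA quality had a part in the plastid values was not tested. In the comparisons that share the 0 h arrays, the plastid median was 0.71 at 1 h with 0 genes called and 0.27 at 7 days with 8 called.

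**Figure D5:**
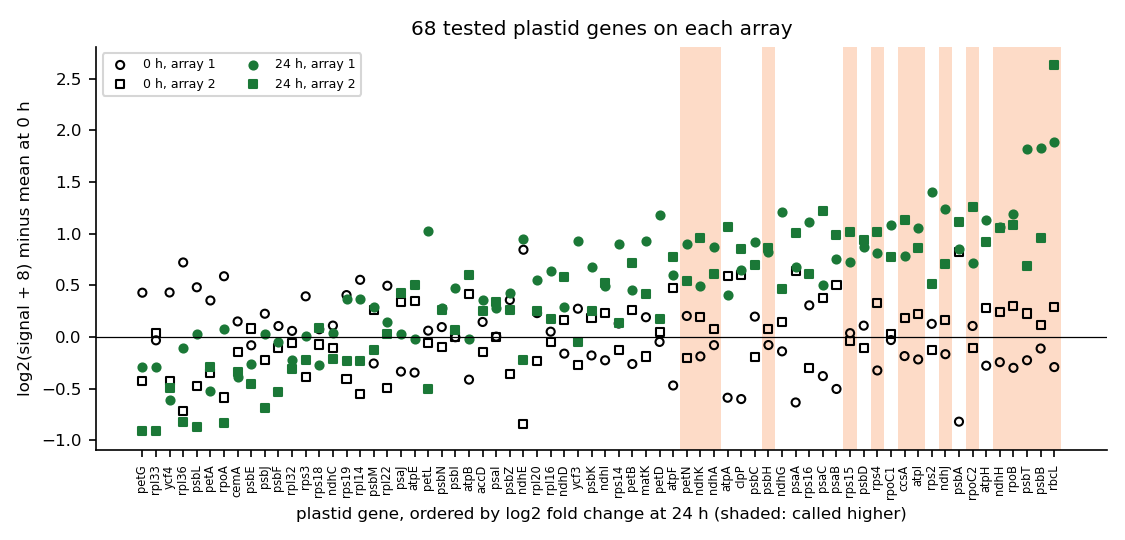
Log2(signal + 8) minus its mean at 0 h (vertical axis) for the 68 tested plastid genes, ordered by their log2 change, with open symbols for the 0 h arrays and green symbols for the 24 h arrays; shading marks the 15 genes called higher. For many genes in the right part the 24 h arrays lie above the 0 h arrays, and rbcL has the largest change.

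Of 16 measured genes encoded in mitochondria 8 were bright enough to test, and 1 was called, cox1, with 37.7 and 41.0 at 0 h and 87.0 and 72.7 at 24 h (0.89 ± 0.22, limma adjusted p = 0.0113). The call ended without 0 h array 1 (limma adjusted p = 0.0586) and without 24 h array 1 (0.0611). The other 7 ranged from 0.11 upward, all above 0 and none called.

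Genes of the ER body, a compartment of Brassicaceae that stores defence glucosidases, and of jacalin-related lectins found with it were all lower. The 6 tested genes were called lower with a median of -1.71. JAL33 (AT3G16450) fell from 589 and 542 to 139 and 62.4 (-2.49 ± 0.31, limma adjusted p = 0.00019). JAL22 fell from 283 and 194 to 73.8 and 31.5 (-2.09 ± 0.33, limma adjusted p = 0.000816). NAI1 (AT2G22770), the transcription factor needed for ER bodies, fell from 61.8 and 53.4 to 12.3 and 4.96 (-2.02 ± 0.32, limma adjusted p = 0.000829), and NAI2, a component of the body itself, from 422 and 475 to 191 and 142 (-1.40 ± 0.23, limma adjusted p = 0.0012). No array of one group overlapped the other, as was the case for 60.8% of all tested named genes. PYK10, the main glucosidase of root ER bodies, lost its call without either 0 h array (limma adjusted p = 0.132 and 0.0792) and without 24 h array 2 (0.331), and JAL34 without 0 h array 1 (0.066) and 24 h array 2 (0.0833). The summed signal of the 3 measured root markers, mostly PYK10 itself, was 2450 and 2259 at 0 h and 1822 and 1042 at 24 h, while the other 2, EXPA7 and EXPA18, were not called. Whether the share of root tissue had a part in the fall was not tested.

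Of 20 redox enzymes 3 were called higher (15%) and 4 lower (20%), shares near the 11.5% and 15.1% of all tested named genes, and their median was -0.09. MSRB9 (AT4G21850) and MSRB5 (AT4G04830), which repair oxidised methionine, fell from 240.2 and 130.3 to 22.9 and 9.02 (-3.01 ± 0.35, limma adjusted p = 0.000132) and from 292 and 285 to 121 and 74.9 (-1.52 ± 0.24, limma adjusted p = 0.000786). ATMDAR2, which regenerates ascorbate, fell from 505 and 508 to 182 and 139.8 (-1.62 ± 0.21, limma adjusted p = 0.000257), and SRX, a sulfiredoxin, by 1.28 ± 0.21 (0.00114). NDB2 (AT4G05020), an alternative NADH dehydrogenase on the outer face of the inner mitochondrial membrane, rose from 66.3 and 58.8 to 298.5 and 223 (1.92 ± 0.22, limma adjusted p = 0.000103). GR1, a glutathione reductase, rose by 1.02 ± 0.21 (limma adjusted p = 0.00473). The groups did not overlap for these 6, whose calls remained with each array left out. Such a gap was found for 60.8% of all tested named genes. NDB1, NDB3 and NDB4, the closest relatives of NDB2, were at 0.40, -0.24 and 0.42 and were not called.

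Among detoxification families, glutathione transferases were called higher in 1 of 10 cases (10%) and lower in 2 (20%), again near the shares of all tested named genes. GSTU18 (AT1G10360) fell from 202 and 231 to 37.8 and 39.8 (-2.26 ± 0.20, limma adjusted p = 2.54e-05) and GSTL3 by 0.92 ± 0.17 (0.00245), while GSTU25 rose from 44.9 and 31.1 to 258 and 107 (1.94 ± 0.33, limma adjusted p = 0.00128). Without 24 h array 2 the higher calls were 2 in place of 1. UDP-glycosyltransferases, which attach sugars to small molecules, were called higher in 4 of 29 cases (13.8%) and lower in 9 (31.0%). The group overlaps the flavonoid enzymes above, with UGT78D3 at 2.36 its highest value. UGT71C1 (AT2G29750) fell from 53.8 and 36.9 to 2.04 and 1.40 (-2.44 ± 0.35, limma adjusted p = 0.000501), UGT85A4 from 41.8 and 31.0 to 6.32 and 0.905 (-1.96 ± 0.40, limma adjusted p = 0.0037), UGT85A2 by 1.37 ± 0.31 (0.00716), GT72B1 from 409 and 306 to 163 and 120.0 (-1.29 ± 0.24, limma adjusted p = 0.00206), and UGT72B3 rose from 45.1 and 28.7 to 181 and 159 (2.01 ± 0.23, limma adjusted p = 0.000123). The lower count was 5 without 0 h array 1. Of 10 CYP71B cytochromes P450, 4 were called lower and none higher, and 2 were left without either 0 h array. CYP71B24, with the largest fall at -1.45 ± 0.42 (limma adjusted p = 0.0232), lost its call without 0 h array 1 (0.115), 0 h array 2 (0.0721) or 24 h array 1 (0.107). CYP71B5 at -1.09 lost it without 0 h array 2 (0.0839) and CYP71B23 at -1.06 without 0 h array 1 (0.0994). CYP71B28 remained called, going from 76.5 and 91.6 to 29.0 and 26.7 (-1.36 ± 0.29, limma adjusted p = 0.00487). Of 10 beta-glucosidases 1 was called higher and 4 lower. BGLU25 (AT3G03640) rose from 95.6 and 96.0 to 607 and 456 (2.36 ± 0.21, limma adjusted p = 2.54e-05), whereas BGLU40 fell from 156.5 and 147 to 40.3 and 41.3 (-1.71 ± 0.23, limma adjusted p = 0.00035). BGLU46 and BGLU16 fell by 1.65 ± 0.36 and 0.80 ± 0.18 (limma adjusted p = 0.00596 and 0.00598). Without 24 h array 2 the higher calls were 2.

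Antimicrobial peptides were called higher in 3 of 7 cases and lower in none. Among all tested named genes 11.5% were called higher and 15.1% lower. The defensins PDF2.1 (AT2G02120) and LCR69 (AT2G02100) rose from 18.2 and 18.6 to 212 and 204 (3.03 ± 0.31, limma adjusted p = 5.43e-05) and from 1586 and 1460 to 4254 and 5339 (1.64 ± 0.20, limma adjusted p = 0.000188). The thionin THI2.2 rose from 46.2 and 114 to 449 and 270.0 (2.13 ± 0.35, limma adjusted p = 0.00107). PDF1.2, a jasmonate-induced defensin, was at -0.75 and was not called. Without 0 h array 1, 2 members were called lower, and without 24 h array 1, 1 was. RALF peptides, which signal to receptor kinases at the cell surface, were called lower in 4 of 6 cases and higher in none. RALFL31 fell from 55.1 and 66.1 to 15.6 and 16.7 (-1.50 ± 0.26, limma adjusted p = 0.00139), and RALFL32 from 210.3 and 187 to 80.9 and 64.4 (-1.36 ± 0.21, limma adjusted p = 0.000861). RALFL34 lost its call without 0 h array 2 (limma adjusted p = 0.0642), and RALFL24 without 0 h array 1 (0.0975) or 24 h array 1 (0.0691).

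In the cytoskeleton, 3 of 7 tubulin genes were called higher (42.9%, against 11.5% of all tested named genes). Fewer were called without 0 h array 1. TUB9 (AT4G20890), a beta tubulin, rose from 484 and 428 to 1412 and 1408 (1.61 ± 0.19, limma adjusted p = 0.000142). TUB5 lost its call without 0 h array 1 (limma adjusted p = 0.157) or 24 h array 1 (0.103), and TUB7 without 0 h array 1 (0.211) or 24 h array 2 (0.285). The others, TUA1, TUA6, TUB1 and TUB6, were between -0.46 and 0.13 and were not called. Of 5 SPIRAL1-like genes, whose products bind microtubules, SP1L3 (AT3G02180) fell from 534 and 662 to 151 and 133 (-2.0 ± 0.19, limma adjusted p = 3.21e-05). SP1L4 was also called lower, but not without 0 h array 1 or 24 h array 1 (limma adjusted p = 0.0866 and 0.0694), and SPR1 was at 0.23.

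Auxin genes were called higher in 3 of 6 cases and lower in none. IAA29, a repressor of auxin responses, read 10.6 and 27.1 at 0 h and 80.8 and 180.9 at 24 h (2.34 ± 0.38, limma adjusted p = 0.000945). GH3.3, which conjugates auxin to amino acids, read 16.2 and 19.8 against 76.4 and 61.3 (1.56 ± 0.28, limma adjusted p = 0.00194). GH3.17, the third, lost its call without any 1 of the 4 arrays, with limma adjusted p between 0.0648 and 0.216. Of 7 clock and light genes, GI (AT1G22770), a clock component that responds to cold, rose from 38.1 and 128 to 568 and 491 (2.76 ± 0.43, limma adjusted p = 0.000788). CCL (AT3G26740) fell from 1197 and 3082 to 446 and 469 (-2.05 ± 0.38, limma adjusted p = 0.00218). The 0 h arrays of both genes differed from each other by over 2-fold, yet did not reach the 24 h signals. Without 0 h array 1 a second gene of this group was called higher. The reference genes PEX4 and AT2G28390 were at 0.40 and 0.20 and were not called.

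Other lists are given by their counts of calls. Of 22 wall enzymes in a list that cuts across the families above, 4 were called higher and 2 lower, and of 23 glutathione and redox genes 4 and 3. In both lists the share called higher was above the 11.5% of all tested named genes. The share called lower was below their 15.1%. Defence genes of the jasmonate and salicylate pathways were called higher in 2 of 11 cases, both already given, and lower in none. Cell cycle and chromatin genes were called in 2 of 8 cases, HTB2, a histone H2B, at 0.77 and SIM at -1.13, of which the first ended without 0 h array 2 (limma adjusted p = 0.159) or 24 h array 2 (0.165). Of 5 entries for nutrient transport 1 was called, FRO1 (AT5G67590) at -0.55, which is a mitochondrial complex I gene that shares a symbol with a reductase, and it lost its call without any 1 of the 4 arrays (limma adjusted p from 0.0665 to 0.153). Of 3 glucosinolate genes UGT74B1 was called, at -0.99, but not without 0 h array 1 (limma adjusted p = 0.277) or 24 h array 2 (0.271). HCT, the 1 tested gene of lignin synthesis, was called at -0.77, but not without 0 h array 1 (limma adjusted p = 0.103), 24 h array 1 (0.0554) or 24 h array 2 (0.08).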

How the data were processed

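Whole Arabidopsis plants were profiled with 8 ATH1 arrays (Affymetrix, 1 colour), 2 per group. The deposited table holds linear signal intensities, 1 per probe set, which per the submitters' processing notes the authors obtained with MAS5, with version and settings not given in the sources used here. Each array's trimmed mean lay near 100, as after scaling by the authors, and no further normalization was applied.

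Names came from the platform's probe annotation, with symbols brought up to date from RefSeq genes (TAIR10.1, no coordinates used): 13513 probe sets were paired with 1 gene, 503 with several and 8730 are not listed there. Where a gene had several probe sets, the brightest on average stood for it. Control probe sets were left out. Testing required a signal over the array's 40th percentile on 2 or more of 8 arrays. Signals were transformed as log2(signal + 8) and fitted with limma 3.58.1 in R 4.3.3, with a mean per group over 8 arrays (4 residual degrees of freedom, prior degrees of freedom 7.67) and an intensity trend. Tests were two-sided with Benjamini-Hochberg adjustment over 15017 probe sets and calls at an adjusted p under 0.05. The number of arrays limits the precision, and the median standard error of a log2 change was 0.236. The fit was tested on simulated data with 50 probe sets changed at each size, fewer than were called here. It recovered 92% and 98% of true log2 changes of -2 and 2. Of true changes of -1 and 1 it recovered 28% and 26%, with 8 false calls in all.

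Gene groups are described by counts and medians with no test of the group. The members and lists were chosen with earlier results of these data known, and some groups were assembled or trimmed after their values had been seen. The named genes are the 30 largest rises and 30 largest falls whose arrays do not overlap, up to 6 members of each group, called ones first and then by size of change, with some that were not called left unnamed and more given in small groups, known cold genes, reference genes and 2 unlisted probe sets each way. A few, such as BETA-VPE, were chosen after their values were seen. Alternatives covered the pseudocount, the filter, the scaling, the trend, the arrays in the fit and the replicate number as a block.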

Additional observations from a re-analysis of the deposited data

How the results depend on the processing

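Across the alternative settings that keep all 4 arrays, the total of 4074 calls ranged from 3379 (no filter on dim probe sets) to 4391 (replicate block). Leaving out 1 array in turn gave 2694 to 3328 calls, of which 1202 to 1374 higher and 1445 to 1954 lower; the lowest totals came without 0 h array 1 (2694) and without 24 h array 2 (2705). For named genes the main count was 2136 and the counts with 1 array left out 1413 to 1764, and for members of the gene groups 165 and 130 to 137. Arrays scaled to equal medians gave 2047 higher and 1776 lower calls, where the main setting gave 1771 and 2303. Of 241 called probe sets that were followed, 154 were called under every alternative that tested them and none changed direction. The 241 include the 60 largest named changes and the unlisted probe sets given above. Most calls that ended did so when an array was left out (48 to 57 per array) or without the filter (36). Of 72 counts of group members, 43 stayed within 1.5 times under every alternative. The 43 include counts that were 0 in the main setting and stayed 0, such as cold-regulated genes called lower. Replicate numbers were checked for pairing: the differences between arrays 1 and 2 correlated at 0.403 between 0 h and 24 h, 0.385 between 0 h and 1 h and 0.243 between 1 h and 24 h, and at -0.209, -0.026 and -0.166 between 7 days and 0 h, 1 h and 24 h. Not every pair was above 0.1 and the labels give no shared source, so the numbers were not taken to pair the samples. The replicate block gave 2300 named genes and 170 group members and ended 2 calls, GH3.17 (adjusted p = 0.0506) and psbH (adjusted p = 0.0517). The planned search for promoter motifs was not run, since no promoter sequences were used here. Depth in the sense of counts does not apply; dim signals limit the smallest changes that could be called.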

Other observations

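Several further gene groups were measured. Of all tested named genes 11.5% were called higher and 15.1% lower. The 2 genes for the enzyme that activates phosphocholine for synthesis of the membrane lipid phosphatidylcholine differed. CCT2 (AT4G15130) had signals of 33.4 and 23.0 at 0 h and 226 and 199 at 24 h, a log2 change of 2.62 ± 0.21 (SE, limma adjusted p = 1.33e-05), whereas CCT1 was at -0.42 and was not called. PMEAMT, a methyltransferase of the same pathway, fell from 801 and 844 to 453 and 361 (-1.01 ± 0.19, limma adjusted p = 0.00262). The 24 h arrays of CCT2 were both above its 0 h arrays and those of PMEAMT both below. The groups were apart for 60.8% of all tested named genes.

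Tetraspanins, membrane proteins that organise membrane domains, were called higher in 1 of 6 cases and lower in 3. TET3 (AT3G45600), a tetraspanin of cell contacts, rose from 138 and 122 to 366 and 283 (1.26 ± 0.20, limma adjusted p = 0.000888). TET10 fell from 96.9 and 84.1 to 28.5 and 43.0 (-1.19 ± 0.24, limma adjusted p = 0.00384). Of 12 ubiquitin-specific proteases, which remove ubiquitin from proteins, 4 were called higher and none lower. UBP23 rose from 171 and 200.4 to 442 and 507 (1.32 ± 0.19, limma adjusted p = 0.000548), and it was the only one of the 4 still called without 0 h array 1; 2 were called without any other single array. Of 8 bZIP transcription factors 2 were called higher, and 1 without either 0 h array or without 24 h array 1. bZIP44 rose from 80.3 and 78.8 to 241 and 202 (1.38 ± 0.19, limma adjusted p = 0.00034), and at 7 days it was at -0.50. Of 16 serine carboxypeptidase-like genes 2 were called higher (12.5%) and 4 lower (25.0%), against 11.5% and 15.1% of all tested named genes. No higher call was left without 0 h array 2, 24 h array 1 or 24 h array 2, and 2 lower calls were left without 0 h array 2 or 24 h array 1. The gene listed as scpl31 fell from 34.5 and 53.6 to 13 and 9.11 (-1.43 ± 0.28, limma adjusted p = 0.00326).

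Some groups showed no calls in limma: the 5 tested gibberellin and brassinosteroid genes lay between -0.60 and 0.42, and EIN3 and ARR15, of ethylene and cytokinin signalling, were at -0.60 and -0.21.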
